A study of Mus musculus with 12 samples.

Results

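The genes described here are 37 genes of the NRF2 antioxidant response and the glutathione transferase families, taken by symbol from a count table of 46095 genes. All 37 were found in the table, and all 37 were among the 14666 genes that passed the filter on low counts. RNA had been sequenced from hepatocellular carcinomas that the liver carcinogen diethylnitrosamine (DEN) induced in mice. Both groups carried DEN-induced tumours of the liver. KO libraries (n = 7) came from mice labelled Pck1-null, Pck1 being the gene of the cytosolic phosphoenolpyruvate carboxykinase of gluconeogenesis, and WT libraries (n = 5) from wild-type mice. The labels give no strain, sex, age, DEN dose or description of the null allele, and no library of liver without a tumour was analysed here. Whether each library is its own animal is not said, and p-values here cover only the spread among the libraries.

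Levels are given as CPM, counts scaled to a common library size after TMM correction for composition, and differences between groups are fitted log2 fold changes of KO over WT with their standard error (SE). Total counts lay between 17462102 and 46747125. A gap in depth separated 7 shallower libraries (KO replicates 1, 2, 3 and 7 and WT replicates 1, 3 and 4) from 5 deeper ones (KO replicates 4, 5 and 6 and WT replicates 2 and 5). Xist, which is transcribed from the inactive X, was above 10 CPM in KO replicates 1, 2, 3, 5 and 6 and WT replicate 4. Pck1 itself was at 111, 219 and 1167 CPM (lowest, median and highest) in KO and at 1696, 5598, 5599, 1063 and 5822 CPM in WT replicates 1 to 5, so that KO replicate 3 lay above WT replicate 4. The labelled tissue was checked with 9 hepatocyte genes, of which Alb (albumin) ranged from 31610 to 140800 CPM over the 12 libraries. In bulk tissue, fewer cells of a type and less RNA per cell cannot be told apart.

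NRF2, encoded by Nfe2l2, is a transcription factor that KEAP1 holds in the cytoplasm and marks for breakdown. Electrophiles and oxidants modify KEAP1, NRF2 then enters the nucleus with a small MAF protein, and the pair binds antioxidant response elements near genes for quinone reduction, glutathione synthesis, the thioredoxin system, iron storage and conjugation. Glutathione transferases join glutathione to reactive compounds, and hepatocytes hold them at high levels. Activation of NRF2 is common in liver tumours. Transferase genes of the liver also answer to other inputs, among them the xenobiotic receptors CAR, PXR and AhR, sex-dependent growth hormone secretion and, in hepatocytes around the central vein, beta-catenin.

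The sequence that NRF2 recognises can be read in part of the promoters. The core TGACNNNGC was searched on both strands over the 250 bases before each annotated start in RefSeq promoters of GRCm38.p6, the assembly of mm10. Of the 37 genes, 32 had a promoter in the table, and 8 of these held the core (25.0%), against 11.5% of all 27025 genes with a promoter. Gclc, Gsr, Hmox1, Gsta4 and Gstt2 had no promoter there and were not searched. Many known elements of the 37 genes lie farther upstream, outside this window. The matches are shown as sequence only. Genes that carry one differed in which tumours held their highest levels. So did genes without one, such as Cbr3 (highest in WT replicate 4) and Srxn1 (highest in KO replicate 7). The core is in capitals, and each line is read along the strand of its gene.
Nfe2l2: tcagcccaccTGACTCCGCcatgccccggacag
Gclm: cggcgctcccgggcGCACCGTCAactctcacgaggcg
Txnrd1: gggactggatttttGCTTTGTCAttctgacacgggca
Prdx1: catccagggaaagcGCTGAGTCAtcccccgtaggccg
Ugdh, upstream match: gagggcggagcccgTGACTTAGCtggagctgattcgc
Ugdh, downstream match: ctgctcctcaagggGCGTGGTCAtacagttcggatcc
Gsta3: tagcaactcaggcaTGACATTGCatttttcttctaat
Gstm5: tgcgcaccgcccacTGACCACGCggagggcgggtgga
Gstm7: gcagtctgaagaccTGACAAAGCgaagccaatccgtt
These stretches lie at chr2:75704881-75704913, minus strand, core beginning 240 bases before the start (Nfe2l2), at chr3:122245409-122245445, plus strand, core beginning 134 bases before the start (Gclm), and at chr10:82859100-82859136, plus strand, core beginning 92 bases before the start (Txnrd1). That of Prdx1 lies at chr4:116685452-116685488, plus strand, core beginning 133 bases before the start, and holds the stricter form TGACTCAGC on the opposite strand. This form overlaps the AP-1 site TGACTCA and occurs before the start of 0.426% of all genes. The matches of Ugdh lie at chr5:65435952-65435988, minus strand, core beginning 132 bases before the start, and at chr5:65435914-65435950, minus strand, core beginning 94 bases before the start. That of Gsta3 lies at chr1:21240450-21240486, plus strand, core beginning 121 bases before the start, that of Gstm5 at chr3:107895798-107895834, plus strand, core beginning 42 bases before the start, and that of Gstm7 at chr3:107931721-107931757, minus strand, core beginning 129 bases before the start. In Gclm, Txnrd1 and Prdx1 and in the downstream match of Ugdh the core reads on the strand opposite to the gene. The stretches of Txnrd1 and Gstm7 lie before a start inside the annotated gene span (chr10:82833951-82897724 and chr3:107926334-107931877). A gene with several starts counted as holding the core if any of them did. A match describes these letters and not a bound site.

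Between KO and WT tumours none of the 37 genes passed the test. With edgeR's quasi-likelihood test and an adjusted p under 0.05 over all genes tested, 0 of 37 were called, as were 0% of all 14666 genes. At an unadjusted p under 0.05, 1 gene was higher in KO (Abhd4) and 2 were lower (Gsta1 and Gstt3), or 3 of 37, while 14.7% of all genes tested were called by that rule. DESeq2 called 0 of 37 (3.33% of all genes) and limma-voom without sample weights 0 of 37 (0.0341%). Limma-voom with sample weights called 3 of 37 (14.6% of all genes), namely Abhd4 and Gstm5 higher (6.4% of all genes) and Gstt3 lower (8.18%). The median log2 fold change was −0.055 over the 37 genes and 0.034 over all genes tested, and 16 of 37 were positive, where 53.7% of all genes were. In 0 of 37 did the groups not overlap, against 0.634% of all genes with KO above WT and 0.58% with KO below.

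Levels varied widely from tumour to tumour over the 12 libraries of both genotypes. The median SD of log2 CPM over the 12 libraries was 0.73 for the 37 genes and 0.48 for all genes tested, and 8 of 37 had an SD above 1 (21.6%, against 18.4% of all genes). Those 8 were Cbr3, Gstm3, Gsta1, Gstt3, Gstp2, Gsta2, Hmox1 and Gstm2. Gstt3 had the widest range, with its highest level (WT replicate 2) 75.2 times its lowest (KO replicate 5). Gstm3 (60.2 times, KO replicates 1 and 5) and Cbr3 (56.6 times, WT replicates 4 and 3) followed. The SD within KO and within WT was 1.52 and 1.23 for Gstt3, 1.93 and 1.83 for Gstm3, and 1.65 and 2.33 for Cbr3. For Hmox1 it was 1.45 in KO and 0.47 in WT. Keap1 (1.74 times), Txnrd1 (1.88 times) and Nfe2l2 (2.05 times) varied least.

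**Figure D1:**
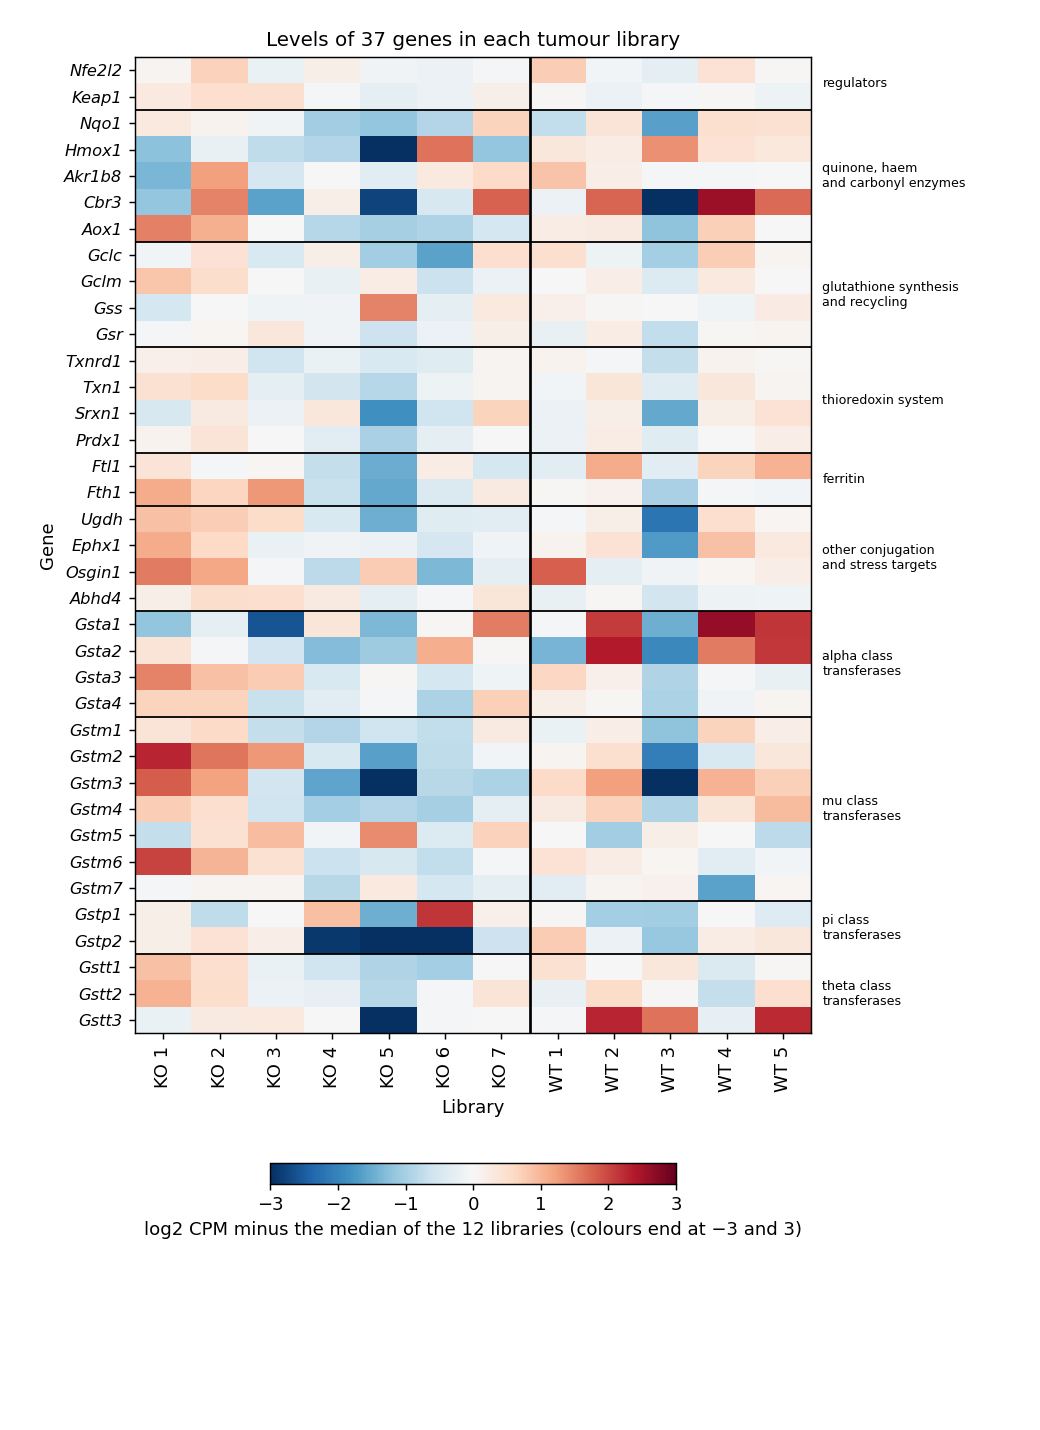
Rows are the 37 genes, grouped by role, and columns the 12 libraries, with a line between KO and WT. Colour gives log2 CPM minus the median of the gene over the 12 libraries, from −3 (blue) to 3 (red). KO replicate 5 and WT replicate 3 are mostly blue. Red stands in partly different genes in KO replicates 1 and 2 and in WT replicates 2, 4 and 5, with Gstm3 and Cbr3 among those shared.

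The direction of the genotype difference was not the same in the shallower and the deeper libraries. Within the shallower libraries (4 KO, 3 WT) the median log2 fold change of the 37 genes was 0.31, and 12 were negative, beside 50.5% of all genes. At an unadjusted p under 0.05, 5 of 37 were higher in KO (Keap1, Fth1, Abhd4, Gstm2 and Gstt2), beside 5.18% of 14363 genes, and 1 was lower (Hmox1), beside 5.93%. Within the deeper libraries (3 KO, 2 WT) the median was −0.71, and 32 were negative, beside 44.8%. There 16 of 37 were lower in KO at an unadjusted p under 0.05, beside 7.32% of 16290 genes, and 0 were higher, beside 6.02%. The 16 were Nqo1, Cbr3, Aox1, Txn1, Ftl1, Gsta1, Gsta2, Gstm1, Gstm2, Gstm3, Gstm4, Gstm6, Gstp2 and all 3 theta class genes. Neither class had a gene of the 37 with an adjusted p under 0.05 (0% and 0.0123% of all genes). The median over all genes was −0.0060 among the shallower libraries and 0.070 among the deeper. A test of genotype by depth class in edgeR called 0 of 37 at an adjusted p under 0.05 (0% of all genes, smallest adjusted p of the 37 = 0.514), and 13 of 37 at an unadjusted p under 0.05 (9.55% of all genes). Depth moves here with which tumours are compared, and the part of depth itself cannot be told apart from that of the tumours.

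**Figure D2:**
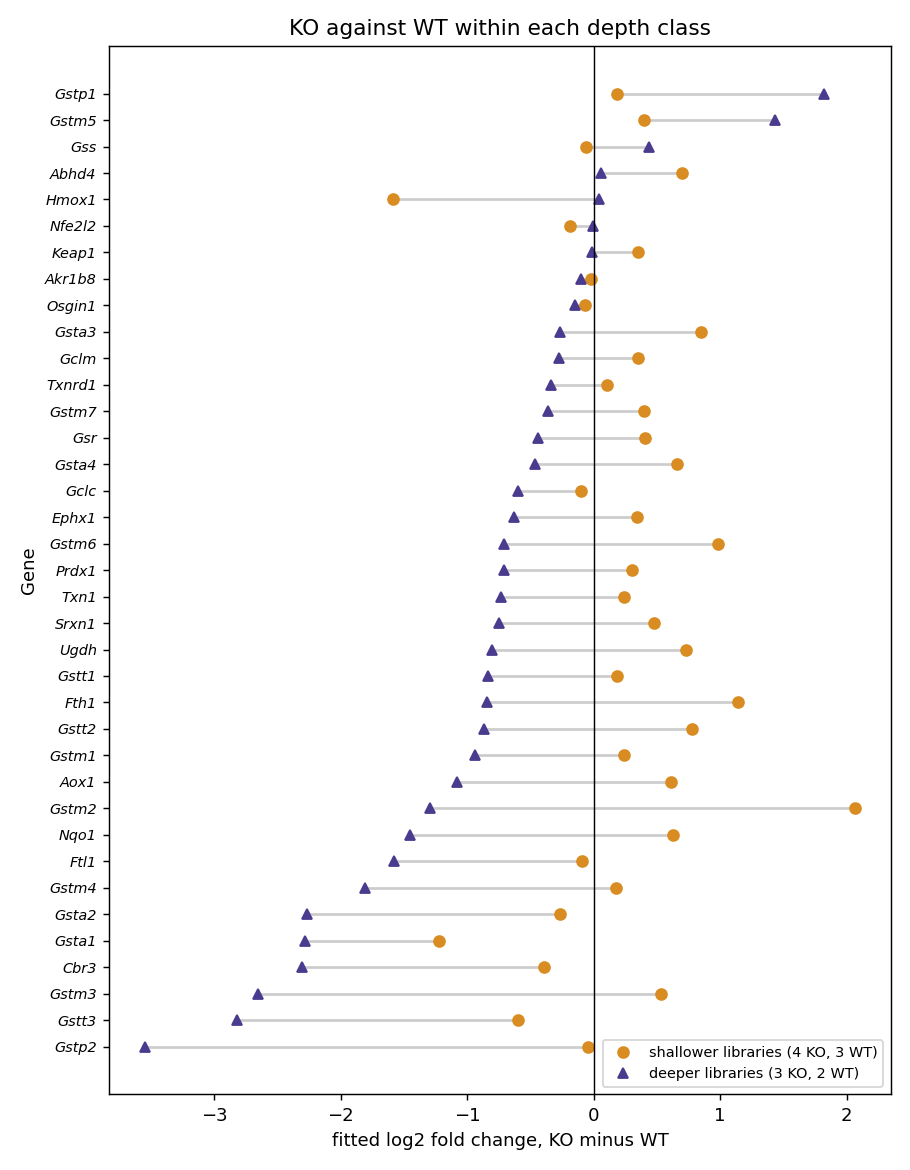
Each row is 1 of the 37 genes, ordered by its value in the deeper libraries. The horizontal axis is the fitted log2 fold change of KO over WT, in the shallower libraries (circles) and the deeper ones (triangles). Most circles lie right of 0 (25 of 37) and most triangles left of it (32 of 37).

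Neither regulator passed the test. Nfe2l2 was at 76.1, 84.2 and 140.1 CPM (lowest, median and highest) in KO and at 146, 81.5, 70.9, 117 and 89.5 CPM in WT replicates 1 to 5. The groups overlapped, with KO replicate 2 and WT replicate 1 highest, and the log2 fold change was −0.12 ± 0.21 (SE, adjusted p = 0.805 in edgeR). Keap1, the substrate adaptor that targets NRF2 for breakdown, was at 66.8, 93.0 and 116 CPM in KO and at 84.6, 73.3, 80.5, 84.0 and 73.6 CPM in WT. KO replicates 1, 2, 3 and 7, which are the shallower KO libraries, lay above all WT libraries, and KO replicates 5 and 6 lay below all of them. Its log2 fold change was 0.22 ± 0.15 over all libraries, 0.35 among the shallower libraries and −0.0095 among the deeper.

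Nqo1, the quinone reductase that is widely used as a readout of NRF2, differed by library within both genotypes. It was at 29.5, 62.0 and 105 CPM in KO and at 39.6, 86.5, 21.5, 92.8 and 90.8 CPM in WT replicates 1 to 5. The 3 deeper KO libraries held 32.3, 29.5 and 35.9 CPM and the shallower ones 62.0 to 105 CPM, while WT replicate 3 had the lowest level of all. The log2 fold change was −0.16 ± 0.41 (adjusted p = 0.883), or 0.63 among the shallower libraries and −1.45 among the deeper. Cbr3, a carbonyl reductase, ran from 3.02 to 171 CPM, with 4.21, 20.8 and 99.5 CPM in KO and 25.5, 97.0, 3.02, 171 and 95.1 CPM in WT. Levels at least 2-fold above the median of the 12 libraries stood in KO replicates 2 (81.7 CPM) and 7 and in WT replicates 2, 4 and 5. Levels at least 2-fold below the median stood in KO replicates 1, 3 and 5 and WT replicate 3, and the log2 fold change of −1.07 ± 0.87 was within this spread (adjusted p = 0.575).

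Hmox1, the inducible heme oxygenase, was at 7.89, 40.8 and 234 CPM in KO and at 96.2, 88.4, 194, 102 and 93.9 CPM in WT replicates 1 to 5. For 6 of 7 KO libraries the level was below all WT libraries, and KO replicate 6 was above them all. The log2 fold change was −0.81 ± 0.61 (adjusted p = 0.545) and −1.63 without KO replicate 6 (adjusted p = 0.0848). Macrophages express Hmox1 strongly, and 10 of 10 Kupffer cell and macrophage markers had counts. Their summed level was 2931 CPM in KO replicate 6, 339 to 592 in the other KO libraries and 656 to 1462 in WT, and their part in the Hmox1 levels was not tested. Aox1, the aldehyde oxidase, was highest in KO replicates 1 and 2 (162 and 118 CPM) and lay between 24.4 and 92.9 CPM in the other 10 libraries. Akr1b8, an aldo-keto reductase, stayed at 1.88 to 11.7 CPM.

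Glutathione synthesis held no gene that separated the groups. Gclc, the catalytic subunit of the rate-limiting glutamate-cysteine ligase, was at 121, 348 and 525 CPM in KO and at 517, 331, 184, 621 and 396 CPM in WT. KO replicates 5 and 6 were the lowest KO libraries and WT replicate 3 the lowest WT library, and the log2 fold change was −0.28 ± 0.38 (adjusted p = 0.755). Gclm, the modifier subunit of the ligase, whose promoter match is printed above, was at 118, 184 and 329 CPM in KO and at 186, 212, 139.5, 225 and 184 CPM in WT. KO replicates 1 and 2 lay above all WT libraries and KO replicate 6 below them, with a log2 fold change of 0.11 ± 0.24 (adjusted p = 0.849). The subunits did not share their ranks, for KO replicate 1 had the highest Gclm of the 12 libraries and a Gclc of 348 CPM, the KO median. Gss, the glutathione synthetase, reached 425 CPM in KO replicate 5, and the other 11 libraries held 106 to 187 CPM. Gsr, the glutathione reductase, lay between 91.3 and 193 CPM.

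None of the 4 genes of the thioredoxin system passed the test, and all 4 had log2 fold changes that were positive among the shallower libraries (0.11 to 0.47) and negative among the deeper (−0.75 to −0.34). Txnrd1, the selenoprotein that reduces thioredoxin, was at 158, 209 and 276 CPM in KO and at 259, 233, 147, 255 and 246 CPM in WT, a log2 fold change of −0.071 ± 0.19 (adjusted p = 0.889). Srxn1, the sulfiredoxin that restores overoxidised peroxiredoxins, was at 60.9, 193 and 346 CPM in KO and at 195, 247, 75.8, 246 and 295 CPM in WT, a log2 fold change of −0.042 ± 0.40 (adjusted p = 0.970). KO replicate 5 and WT replicate 3 held the lowest Srxn1, and KO replicate 7 the highest. Prdx1, a peroxiredoxin with the stricter response element in its promoter, lay between 484 and 1257 CPM, and thioredoxin itself (Txn1) between 82.0 and 218 CPM, with the same lowest and the same highest library.

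The ferritin subunits store iron, and neither passed the test. Ftl1, the light chain, was at 668, 1819 and 2448 CPM in KO and at 1476, 4067, 1521, 2998 and 3860 CPM in WT, with KO replicates 4, 5 and 7 below all WT libraries. Its log2 fold change was −0.76 ± 0.36 (adjusted p = 0.354), or −0.095 among the shallower libraries and −1.58 among the deeper. Fth1, the heavy chain, was at 1197, 4171 and 8558 CPM in KO and at 3545, 3815, 1763, 3411 and 3290 CPM in WT. KO replicates 1, 2, 3 and 7 lay above all WT libraries for Fth1 and KO replicate 5 below them. Its log2 fold change was 0.52 ± 0.45 (adjusted p = 0.600), 1.14 among the shallower libraries and −0.84 among the deeper, where both subunits were negative. Of the Ftl1 transcript sequence, 50.9% of stretches of 50 bases also occur in transcripts of other genes, mainly the pseudogene Ftl1-ps1, so its counts are uncertain.

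Among the other conjugation and stress genes, Abhd4, a lipase of N-acyl phospholipids, had 5 of 7 KO libraries above all WT libraries. It was at 75.1, 109.8 and 129.7 CPM in KO and at 77.8, 92.5, 61.5, 80.8 and 82.3 CPM in WT. The log2 fold change was 0.44 ± 0.16 (SE, adjusted p = 0.251 in edgeR), 0.47 with the Xist class as a covariate, 0.70 among the shallower libraries and 0.056 among the deeper. Ugdh, which makes UDP-glucuronate for glucuronidation, was at 486, 439 and 383 CPM in KO replicates 1 to 3, and at 95.2 and 57.5 CPM in KO replicate 5 and WT replicate 3. Ephx1, the microsomal epoxide hydrolase, ran from 147 CPM in WT replicate 3 to 1022 in KO replicate 1. Osgin1, a growth inhibitor induced by oxidative stress, was highest in WT replicate 1 (777 CPM), then in KO replicates 1, 2 and 5 (658, 499.8 and 383 CPM), with 87.5 to 255 CPM in the others.

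**Figure D3:**
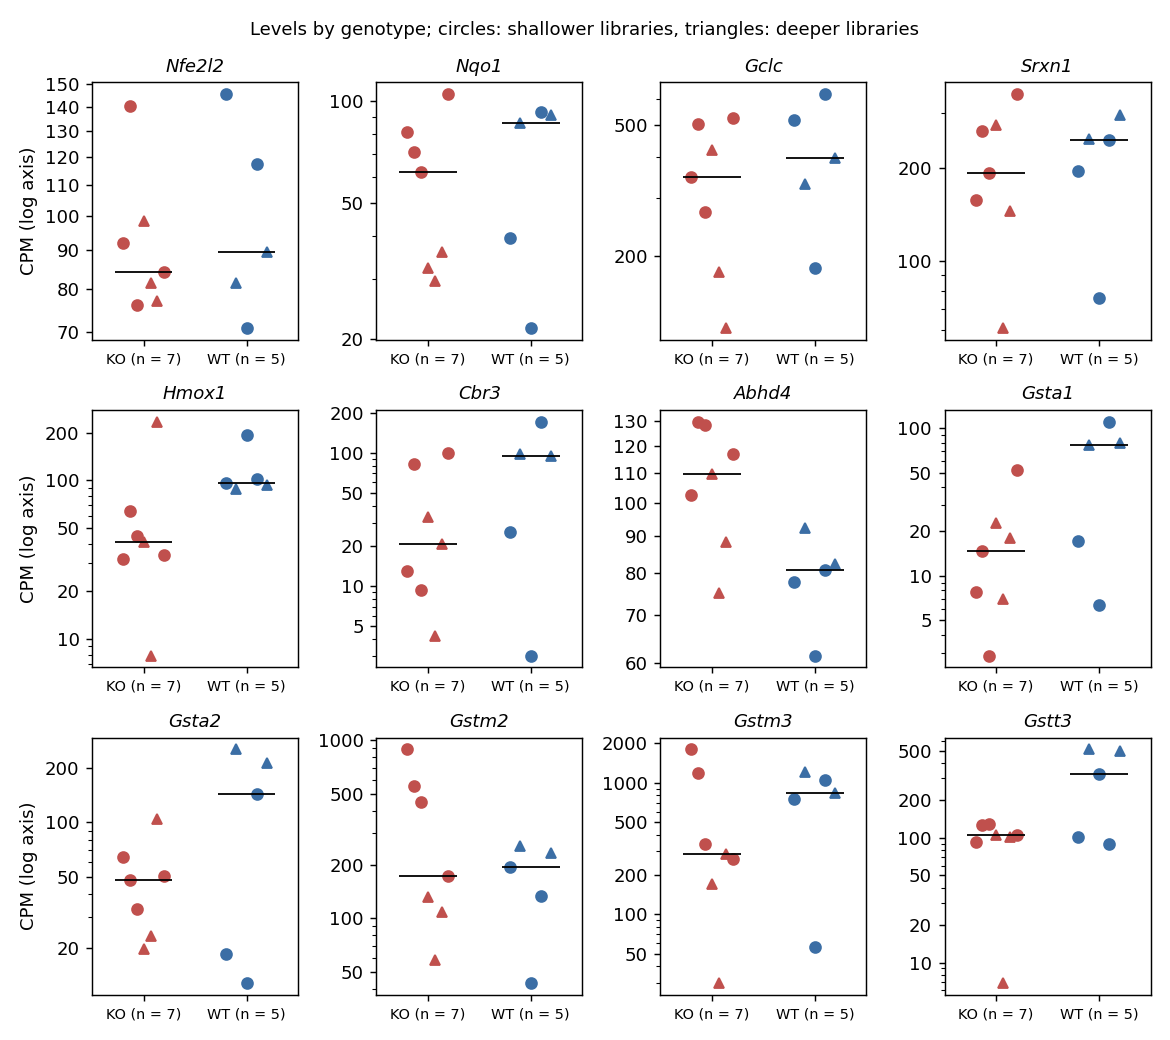
CPM on a log axis of 12 of the 37 genes in KO (red, n = 7) and WT (blue, n = 5), with a line at each group's median. Circles are shallower and triangles deeper libraries. The groups overlap in every panel, and in Gstt3 WT replicates 2, 3 and 5 (326 to 514 CPM) stand above the rest.

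In the alpha class, Gsta1 and Gsta2 were lower in KO than in WT on average, and Gsta3 and Gsta4 had log2 fold changes that were positive over all libraries and negative among the deeper (−0.26 and −0.46), while no member passed after adjustment. Gsta1 was at 2.89, 14.7 and 51.9 CPM in KO and at 17.3, 76.5, 6.39, 111 and 79.0 CPM in WT replicates 1 to 5. WT replicates 2, 4 and 5 lay above every KO library, while WT replicates 1 and 3 lay among the KO libraries. The log2 fold change was −1.70 ± 0.72 (adjusted p = 0.311), −1.68 with the Xist class as a covariate, −1.22 among the shallower libraries and −2.28 among the deeper. Gsta2 was at 19.8, 47.7 and 104 CPM in KO and at 18.7, 255, 12.8, 144 and 215 CPM in WT, high in the same 3 WT libraries, with a log2 fold change of −1.40 ± 0.67 (adjusted p = 0.357). It was −0.27 among the shallower libraries, −2.27 among the deeper, −0.63 in limma-voom without sample weights and −1.0 without WT replicate 2. Because 90.5% of the Gsta1 stretches and 49.8% of the Gsta2 stretches of 50 bases occur in other genes, their counts can be split between copies. Their sum was also highest in those WT libraries, at 332, 255 and 294 CPM, with 19.2 to 122 CPM in the other 9. Gsta1 made up 23.1%, 43.4% and 26.9% of the counts of both genes there, so the sum speaks mainly for Gsta2. The sum leaves out Gm3776, in which 75.7% of the Gsta1 stretches also occur. Gsta3, the main alpha class gene of mouse liver by level per length here, was at 2314, 1516 and 1402 CPM in KO replicates 1 to 3, 1257 in WT replicate 1 and at most 905 in the others. Gsta4, which acts on the lipid aldehyde 4-hydroxynonenal, lay between 68.3 and 219 CPM.

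The 7 mu class genes lie side by side on chromosome 3, from 107895854 to 108045179 (GRCm38.p6), in the order Gstm5, Gstm7, Gstm6, Gstm3, Gstm2, Gstm1 and Gstm4, and neighbours differed in their pattern. Gstm1 had the highest level per length of the 37 genes, a median of 2309 CPM per kb of exon, and ran from 1467 to 5394 CPM. Gstm2 was at 58.5, 172 and 889.6 CPM in KO and at 193, 256, 43.1, 132 and 231 CPM in WT. KO replicates 1, 2 and 3 (889.6, 552 and 452 CPM) lay above all other libraries, and the log2 fold change was 0.98 ± 0.66 (adjusted p = 0.503), 2.07 among the shallower libraries and −1.29 among the deeper. Gstm6 was highest in the same 3 libraries, at 337, 166 and 114 CPM, against 49.2 to 112 in the others.

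Gstm3, which lies between Gstm6 and Gstm2, was at 29.8, 285 and 1795 CPM in KO and at 750.2, 1198, 56.4, 1045 and 829 CPM in WT. It was above 750.2 CPM in KO replicates 1 and 2 and in WT replicates 2, 4 and 5, and low in KO replicate 5 (29.8 CPM) and WT replicate 3. The log2 fold change was −0.42 ± 0.85 (adjusted p = 0.842), 0.53 among the shallower libraries and −2.65 among the deeper. Gstm5, at the end of the cluster, was at 11.8, 26.4 and 51.9 CPM in KO and at 19.5, 9.42, 21.9, 19.2 and 11.2 CPM in WT, with 4 of 7 KO libraries above all WT libraries. KO replicate 5, which was low in Gstm2 and Gstm3, held the highest Gstm5. Its log2 fold change was 0.75 ± 0.37 (adjusted p = 0.368 in edgeR and 0.0365 in limma-voom with sample weights). Gstm4 lay between 46.0 and 180.5 CPM, and Gstm7 between 28 CPM in WT replicate 4 and 104 CPM in KO replicate 5. Of the stretches of 50 bases, 18.9% in Gstm1 and 28.8% in Gstm3 also occur in other genes, most of them in Gstm2-ps1 and Gm8834.

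The pi class genes Gstp1 and Gstp2 are neighbours on chromosome 19 (chr19:4035411-4037912 and chr19:4040288-4042221). Gstp1, whose rat counterpart marks preneoplastic liver cells, was at 9.02, 27.9 and 112 CPM in KO and at 25.9, 12.3, 12.2, 25.1 and 19.3 CPM in WT. KO replicates 6 and 4 stood highest, at 112 and 47.2 CPM, and KO replicate 5 lowest, and the log2 fold change was 1.0 ± 0.54 (adjusted p = 0.403). Without KO replicate 6 it was 0.42, and it was 0.19 among the shallower libraries and 1.82 among the deeper. Gstp2 was low throughout, at 0.222, 2.15 and 4.58 CPM in KO and at 5.71, 2.94, 1.48, 3.91 and 4.28 CPM in WT, with a log2 fold change of −0.76 ± 0.73 (adjusted p = 0.636). That value moved with the fit, to −0.047 among the shallower libraries, −3.55 among the deeper, −1.57 with depth class as a covariate, and −1.79 and −1.98 in limma-voom with and without sample weights. Its counts were 22, 10 and 14 in KO replicates 4 to 6, or 0.826%, 2.40% and 0.269% of the counts of both genes. In the other 9 libraries the share was 7.14% to 23.7%, the deeper WT replicates 2 and 5 included (19.3% and 18.1%). As 54.3% of the Gstp2 and 33.7% of the Gstp1 stretches of 50 bases occur in other genes, mainly each other, the split between them is uncertain.

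The theta class genes are neighbours on chromosome 10, in the order Gstt3, Gstt1 and Gstt2. Gstt3 was at 6.85, 106 and 129 CPM in KO and at 102, 514, 326, 89.4 and 497 CPM in WT replicates 1 to 5. WT replicates 2, 3 and 5 lay above all other libraries, WT replicates 1 and 4 lay among the KO libraries, and KO replicate 5 lay far below the other 11. The log2 fold change was −1.67 ± 0.60 (adjusted p = 0.251), −1.16 with the Xist class as a covariate, −0.60 among the shallower libraries and −2.82 among the deeper. Without KO replicate 5 it was −1.47. Of the Gstt3 stretches of 50 bases, 12.5% also occur in other genes, mainly Gm20441. Gstt1 ran from 120.5 to 448 CPM and Gstt2 from 30.6 to 115 CPM, both highest in KO replicate 1.

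The 37 genes were next counted within each library. A gene was counted as high in a library where it was at least 2-fold above its median over the 12 libraries, and as low where it was at least 2-fold below. By this count 18 of 37 were high in no library, among them the widely used NRF2 targets Nqo1, Gclc, Gclm, Gsr, Txnrd1, Txn1, Srxn1 and Prdx1. The share of all genes tested that were high in no library was not counted, so this number has no background beside it. KO replicate 1 had 9 of 37 high, beside 5.13% of all genes tested, namely Aox1, Fth1, Ephx1, Osgin1, Gsta3, Gstm2, Gstm3, Gstm6 and Gstt2. It also had 4 low, beside 9.57%, namely Hmox1, Akr1b8, Cbr3 and Gsta1. KO replicate 2 had 7 high (5.6% of all genes), which were Akr1b8, Cbr3, Aox1, Osgin1, Gstm2, Gstm3 and Gstm6, and 0 low (10.1%). WT replicates 2, 5 and 4 had 6, 5 and 4 high (6.38%, 5.25% and 7.85% of all genes). Cbr3, Gsta1 and Gsta2 were high in all 3 of these WT libraries, Gstm3 in WT replicates 2 and 4, and Ftl1 and Gstt3 in WT replicates 2 and 5. The high genes of KO replicate 1 and those of WT replicate 5 shared no member. Other pairs did overlap, as Gstm3 was high in KO replicates 1 and 2 and in WT replicates 2 and 4. Cbr3 was high in KO replicate 2 and in all 3 of these WT libraries. The counts depend on the reference level. Against the median of the WT libraries, KO replicate 1 had 8 high, KO replicate 2 had 3 and WT replicates 2, 4 and 5 had 0 each. For Cbr3, Gsta1 and Gsta2 that median is itself a level of WT replicate 5, 2 or 4. The counts of 0 are therefore in part set by the choice of reference. The share of all genes was not counted against the WT median, so these counts have no background beside them.

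Low levels were concentrated in KO replicate 5 and WT replicate 3. KO replicate 5 had 15 of 37 low, beside 12.7% of all genes, and the lowest level of the 12 libraries for 12 of 37. WT replicate 3 had 14 low, beside 8.39%, and the lowest level for 13 of 37. The share of all genes with their lowest level in either library was not counted. Low in both were Nqo1, Cbr3, Gclc, Srxn1, Ugdh, Gsta1, Gsta2, Gstm2, Gstm3, Gstp1 and Gstp2. In KO replicate 5 2 genes were high, Gss and Gstm5 (9.09% of all genes), and in WT replicate 3 another 2, Hmox1 and Gstt3 (6.7%). KO replicate 6 had 3 high (Hmox1, Gsta2 and Gstp1, beside 8.22%) and KO replicate 4 had 0 (5.99%). KO replicates 4 and 6 had 5 low each (3.63% and 4.63% of all genes), and KO replicates 3 and 7 and WT replicate 1 had 2, 2 and 1 high (6.59%, 3.87% and 3.63%). Low genes numbered 2 in KO replicate 3 (8.33%), 1 in KO replicate 7 (6.16%), 1 in WT replicate 1 (6.32%), 2 in WT replicate 2 (5.11%), 1 in WT replicate 4 (5.71%) and 0 in WT replicate 5 (3.18%). The median deviation of the 37 genes from their medians was −0.89 in KO replicate 5 and −0.75 in WT replicate 3 on the log2 scale, and 0.51 in KO replicate 2.

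**Figure D4:**
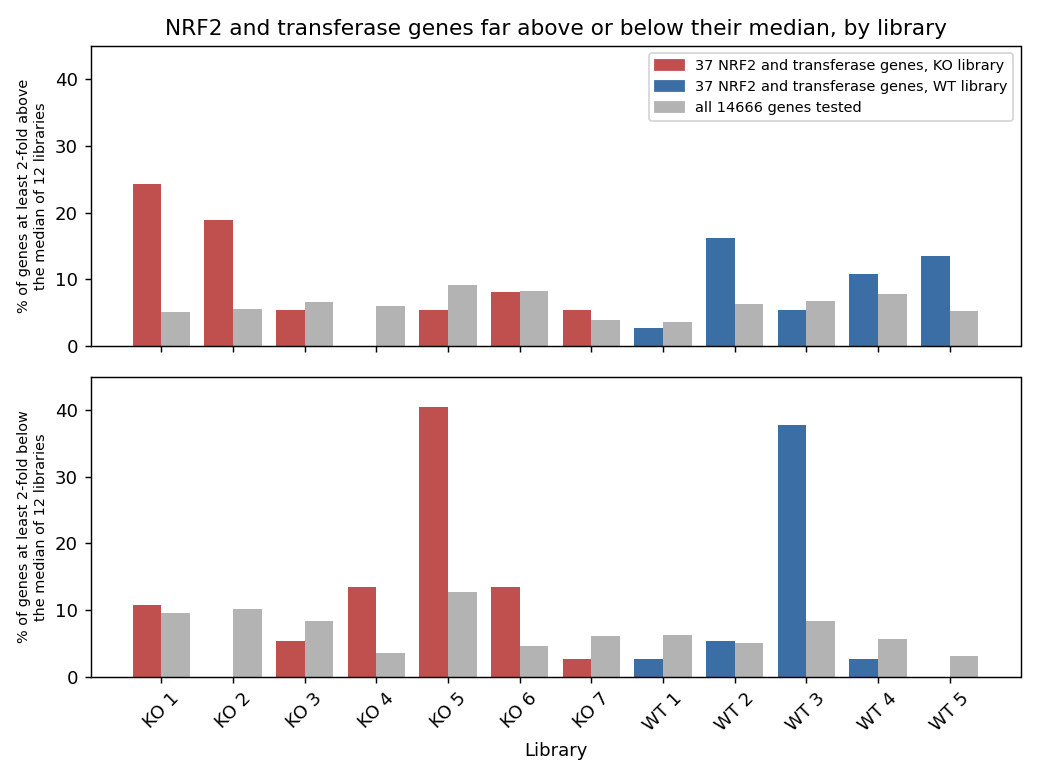
For each library, bars give the percent of the 37 genes (red KO, blue WT) and of all 14666 genes tested (grey) at least 2-fold above (top) or below (bottom) their median over the 12 libraries. The tallest bars are those of KO replicates 1 and 2 in the top panel and of KO replicate 5 (40.5%) and WT replicate 3 (37.8%) in the bottom panel.

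The summed level of 9 hepatocyte genes was 160500 CPM in KO replicate 5 and 212200 in WT replicate 3, within or above the 60900 to 183700 CPM of the other 10 libraries. Markers of other cells moved with some libraries. The sum of 6 cholangiocyte genes was 4313 CPM in KO replicate 5 and 25.7 to 972 in the others. Spp1 alone made up 4254 CPM of it in KO replicate 5. Krt19, Krt7, Epcam, Sox9 and Cftr were at 0.709, 1.6, 12.7, 43.05 and 1.17 CPM there, each within the range of the other libraries. The sum of 10 neutrophil genes was 1631, 399.8 and 248 CPM in KO replicates 3, 6 and 4 and 23.4 to 51.4 in the others. The sum of 8 endothelial genes was 130.3 to 651 in KO and 349.6 to 563 in WT, that of 8 erythroid genes 26.0 to 1543 in KO and 139.6 to 821 in WT, and that of 7 T and B cell genes 2.84 to 24.6 in KO and 8.57 to 12.8 in WT. Of the tested genes at an unadjusted p under 0.05 in edgeR, 8 of 9 neutrophil and 2 of 7 erythroid genes were higher in KO (7.25% of all genes). Lower were 3 of 8 endothelial, 1 of 10 Kupffer cell and macrophage and 1 of 9 hepatocyte genes (7.44%). None of the marker lists had a gene at 0 in all libraries. The part of these cells in the levels of the 37 genes was not tested. Without KO replicates 3, 4 and 6, a subset chosen after the data were seen, edgeR called 0 of 37. With all 12 libraries it called 0 of all 14666 genes, so this count cannot show the part of these cells.

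The summed level of 14 genes that beta-catenin drives in hepatocytes was highest in KO replicates 1 to 3. It was 34610, 20700 and 25250 CPM there, 153 in KO replicate 5, 891 in WT replicate 3 and 1060 to 7041 in the others. All 14 had positive log2 fold changes over the 12 libraries, and 6 were higher in KO at an unadjusted p under 0.05 (7.25% of all genes). Among the deeper libraries, which do not hold KO replicates 1 to 3, 7 of the 14 were negative, Glul (−0.50) and Oat (−2.35) included. Glul, the glutamine synthetase of pericentral hepatocytes, was at 15900, 9407 and 11640 CPM in KO replicates 1 to 3, 2764 in WT replicate 1, 31.7 in KO replicate 5 and 116 in WT replicate 3. Gstm2, Gstm6 and Gsta3 had their highest levels in the 3 libraries with the most Glul, save that Gstm6 in KO replicate 3 (114 CPM) was close to WT replicate 1 (112 CPM). This order was not particular to transferases, for Fth1, Ugdh and Keap1 were also highest in those 3 libraries. Ugdh in KO replicate 3 (383 CPM) was close to WT replicate 4 (373 CPM). Gsta1 and Cbr3 had another order, although Cbr3 was also high in KO replicate 2. They were at 7.74 and 13.1 CPM in KO replicate 1 and at 2.89 and 9.44 in KO replicate 3, below their medians, and highest in WT replicate 4, where Glul was at 284 CPM. KO replicate 5 and WT replicate 3, with the least Glul, were low in Gsta1, Cbr3, Gstm2 and Gstm3 alike. KO replicates 1 to 3 are all shallower libraries with Xist above 10 CPM, as is WT replicate 4. The part of beta-catenin in the levels of the 37 genes was not tested.

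**Figure D5:**
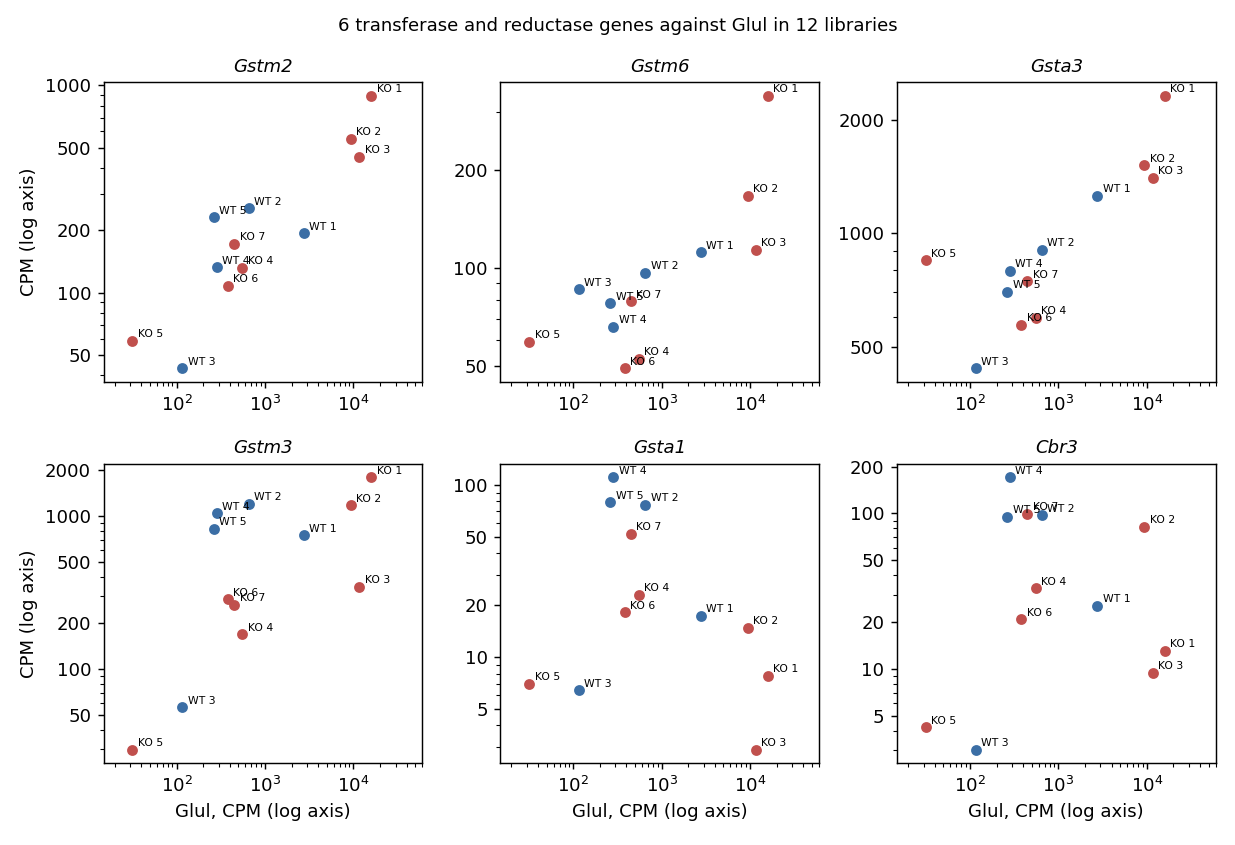
Each panel plots 1 gene (vertical axis, CPM) against Glul (horizontal axis, CPM) in 12 libraries, both on log axes, with KO in red and WT in blue. In the upper panels KO replicates 1 to 3 hold both the most Glul and the highest levels, and in the lower panels of Gsta1 and Cbr3 they do not.

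Of 88 other genes in 8 lists, 86 were in the table and 82 were tested. At an unadjusted p under 0.05, 3 were higher in KO (7.25% of all genes) and 6 were lower (7.44%), and 0 passed after adjustment. Higher were Sesn1, a sestrin that is also a p53 target (0.84 ± 0.26, adjusted p = 0.218), Abcc5, an exporter of conjugates and nucleotides (1.44 ± 0.52), and Maff, a small MAF partner of NRF2 (1.04 ± 0.47). Sesn1 was at 12.1, 26.2 and 34.4 CPM in KO and at 15.9, 14.9, 13.6, 11.2 and 12.4 CPM in WT, so that 5 of 7 KO libraries lay above all WT libraries. Lower were Cat, the catalase (−0.85 ± 0.27, adjusted p = 0.222), Aldh1a7, an aldehyde dehydrogenase (−1.02 ± 0.43), Cyp2b10, the classic target of the receptor CAR (−3.30 ± 1.44), and Cyp2b13, a cytochrome P450 of the same family (−2.88 ± 1.30). Sod2, the mitochondrial superoxide dismutase, and Taldo1, the transaldolase of the pentose phosphate pathway, were the other 2, at −0.71 ± 0.33 and −0.40 ± 0.18, of which Sod2 is named after its values were seen. Cat was at 472, 853 and 1322 CPM in KO and at 1121, 1774, 1388, 2144 and 1712 CPM in WT, with a log2 fold change of −0.83 among the shallower libraries and −0.89 among the deeper. All 6 genes of NADPH supply had negative log2 fold changes over all libraries and among the deeper, and 5 among the shallower, where Pgd was at 0.0073, with 1 at an unadjusted p under 0.05 (Taldo1). Of 11 genes for cystine uptake, glutathione turnover and peroxidases, 5 were positive and 6 negative, with 0 at that level, and of 7 other transferases tested 2 were positive and 5 negative, with 0.

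Per length of exon in GENCODE M21, the medians over the 12 libraries set the 37 genes in order. After Gstm1 came Ftl1 (1403 CPM per kb), Fth1 (1003), Gstm3 (417), Prdx1 (314), Ephx1 (244) and Gsta3 (189). Gclc stood at 98.8, Nqo1 at 42.7 and Nfe2l2 at 22.9 CPM per kb. The lowest were Gstp2 (3.03) and Akr1b8 (3.29). The neighbours Nqo1 and Hmox1 (42.7 and 43.6) lay closer together than the range of either over the libraries (4.88 and 29.7 times).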

How the data were processed

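Total RNA was extracted with Trizol and checked for integrity before library preparation, per the labels' protocols. The authors deposited whole-number read counts per gene for all 12 libraries, without normalization. HISAT2 aligned the reads to mm10, per the submitters' processing notes, and no source used here gives the counting program, strand setting or annotation. Groups come from the genotype label and replicates are numbered in accession order, so WT replicate 4 is the library titled WT2, for example. KO replicate 7 is titled KP5, unlike the other KO titles, and was grouped by its genotype label; without it the Gsta1 log2 fold change was −2.23, against −1.70 with it. Libraries of a group all differed beyond sampling noise (smallest chi-square per degree of freedom 76.8).

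The 37 genes and the lists were chosen with earlier results of these data known. Genes were kept by filterByExpr (minimum count 10, minimum total 15) and tested with edgeR 4.0.16 in R 4.3.3 (TMM scaling, robust quasi-likelihood F-test, KO against WT, no covariate), with Benjamini-Hochberg adjustment over 14666 genes at 0.05. Log2 CPM used a prior count of 2. DESeq2 1.42.0, limma 3.58.1, other scalings and filters, Xist or depth class as a covariate, subsets of libraries and leaving out each library were alternatives, 2 of the subsets chosen after seeing the data. Fits were tested on simulated data. Values by group (all WT libraries, and the lowest, median and highest of KO) are given for genes with an unadjusted p under 0.05, the 8 with the largest SD and 7 central genes, with Gstm5, Ftl1, Fth1 and Gstp1 added after their values were seen. Of the list genes, 3 were not matched by symbol. Lengths and shared stretches of 50 bases come from GENCODE M21, and promoters and coordinates from RefSeq (GRCm38.p6).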

Additional observations from a re-analysis of the deposited data

Results flagged for a closer look

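In each gene and group, a library was singled out where its gap to the nearest other library was a large part of the range of the group (Dixon's test at 95%). Of 74 gene and group pairs, 12 had such a library, and chance flags about 1 in 20 pairs. Genes that vary together in a library are not independent, and values are log2 CPM with that of the nearest library of the group.

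WT replicate 3 held 6 of the 12. It was lowest in WT for Txnrd1 at 7.20 (nearest 7.86), Fth1 at 10.78 (nearest 11.68), Ugdh at 5.85 (nearest 7.99), Gsta4 at 6.11 (nearest 6.94) and Gstm3 at 5.82 (nearest 9.55), and highest for Hmox1 at 7.60 (nearest 6.68). WT replicate 1 was highest in WT for Akr1b8 at 3.18 (nearest 2.51) and Osgin1 at 9.60 (nearest 8.00). WT replicate 4 was lowest for Gstm7 at 4.81 (nearest 6.11). KO replicate 5 was highest in KO for Gss at 8.73 (nearest 7.55) and lowest for Gstt3 at 2.79 (nearest 6.54). KO replicate 2 was highest in KO for Nfe2l2 at 7.13 (nearest 6.62).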

How the results depend on the processing

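The count of 0 genes past the adjusted threshold held under every alternative run except limma-voom with sample weights, which called 3. At an unadjusted p under 0.05, where edgeR had 1 higher and 2 lower, DESeq2 had 2 and 4, weighted limma-voom 4 and 6, the shallower libraries alone 5 and 1, the deeper libraries alone 0 and 16 (median log2 fold change −0.71), and the libraries low in Xist alone 2 higher. Leaving out 1 library at a time gave 1 to 2 higher and 1 to 5 lower, with 5 lower without WT replicate 3 and 4 without KO replicate 6 or WT replicate 1. With the median of the WT libraries as reference, the high genes numbered 3 in KO replicate 2, 1 in KO replicate 4 and 0 in KO replicate 7. They numbered 1 in WT replicate 3 and 0 in WT replicates 2, 4 and 5, and no share of all genes was counted by that reference. With 1 library left out of the median, WT replicate 1 had 1 to 2. Of all 37, the sign among the shallower libraries differed from that over all libraries in 11, and among the deeper in 13. Of the 19 genes followed through every alternative, it turned among the shallower libraries for Gstm3 (0.53), Nqo1 (0.63), Txnrd1 (0.11) and Srxn1 (0.47), and among the deeper for Hmox1 (0.042), Gstm2 (−1.29), Keap1 (−0.0095) and Gclm (−0.27). Of those 19, signs also turned for Nfe2l2 (0.029) and Srxn1 (0.037) in weighted limma-voom, Srxn1 without weights (0.032), and Gclm (−0.11) and Srxn1 (0.12) with Xist class as a covariate. With each library left out, log2 fold changes ran from −0.25 to 0.047 for Nfe2l2, −0.039 to 0.21 for Gclm and −0.25 to 0.12 for Srxn1, and 0.42 to 1.17 for Gstp1, 0.52 to 1.17 for Gstm2, −1.04 to −0.21 for Gstm3 and −1.53 to −0.57 for Cbr3. The cause was not tested. No paired analysis was possible because the labels give no shared replicate numbers. Counts of 10 to 22 for Gstp2 in KO replicates 4 to 6 limit its precision.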

Other observations

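Slc7a11 and Gpx2, the cystine carrier and a glutathione peroxidase that NRF2 is known to induce, are named here after their values were seen. Slc7a11 was at 5.92, 17.2 and 114 CPM (lowest, median and highest) in KO and at 48.7, 23.8, 0.492, 61.9 and 39.1 CPM in WT replicates 1 to 5. Gpx2 was at 0.921, 4.12 and 20.9 CPM in KO and at 1.76, 19.1, 0.351, 56.7 and 8.02 CPM in WT. For both, KO replicate 7 was the highest KO library (114 and 20.9 CPM), WT replicate 4 the highest WT library and WT replicate 3 the lowest of all 12. Cbr3 has these same 3 libraries as its highest in KO, highest in WT and lowest of 12. Their log2 fold changes were 0.11 ± 0.86 and −1.46 ± 1.03 (SE, adjusted p = 0.962 and 0.520 in edgeR).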
